A study of Mus musculus with 20 samples.

Results

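The clustered histone genes are the gene copies named Hist1h, Hist2h, Hist3h and Hist4h that encode the linker histone H1 and the core histones H2A, H2B, H3 and H4. They were taken by that start of the symbol from the deposited table, which gave 71 of 46939 genes: 6 for H1, 20 for H2A, 20 for H2B, 12 for H3 and 13 for H4. The RNA was that of 129-background mouse embryonic stem cells (mESCs), 2 libraries of wild-type cells (WT) and 2 of cells lacking thymine DNA glycosylase (TDG KO). TDG is the repair enzyme that cuts oxidised cytosines out of DNA. Both lines came as a gift and were grown with LIF and serum on mouse embryonic fibroblasts that could no longer divide, and the fibroblasts were reduced by serial plating before use. The RNA libraries were made with a TruSeq mRNA kit, which selects polyadenylated RNA, and CTCF peak lists were deposited for the same genotypes, 2 lists each. Each genotype may be a single line, so genotype and line cannot be told apart. Nothing in the labels says that the replicates were separate cultures. The p-values thus rest on the spread among these 4 libraries, which may be technical.

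Most clustered histone genes are replication-dependent: they are transcribed in S phase, when new DNA needs new nucleosomes. Their mRNAs normally end in a conserved stem-loop held by the protein SLBP, made by one cut of the precursor, and carry no poly(A) tail. Some of these genes also use a polyadenylation signal further downstream, and poly(A) selection is meant to keep only tailed transcripts. The values here are therefore levels of the histone RNA that passed poly(A) selection, not of histone RNA as a whole. In bulk samples, fewer cells of a type and less RNA per cell cannot be told apart.

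The genes lie in 6 stretches of the mm10 genome, by RefSeq positions. On chromosome 13, 24 members lie between 21715711 and 22043658 (the proximal Hist1 stretch), 31 between 23531044 and 23934913 (the distal Hist1 stretch), and Hist1h2al stands alone further along. Chromosome 3 holds the 11 Hist2 members between 96219885 and 96270192, chromosome 11 the 3 Hist3 members, and chromosome 6 the single Hist4h4. RefSeq lists 68 members as protein-coding and 3 as pseudogenes. Both Hist2h2bb entries of the deposited table were placed on the same RefSeq gene.

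The upstream sequences of 6 members show the elements that a reader of histone promoters looks for, in genes of 4 histone types that include both members that rose in TDG KO and 1 (Hist1h1c) that did not pass the test. Each is the 250 bases before the annotated start from RefSeq (GRCm38.p6, the assembly of mm10), 5′ to 3′ on the gene's own strand. Capitals mark 4 elements on either strand. The first is CCAAT, the letters that the trimeric factor NF-Y binds. The next is the TATA box, searched as TATAAA. The octamer, bound by POU factors such as Oct-1, was searched as ATTTGCAT. The H1 box, an element known from linker histone promoters, was searched as AAACACA. The coordinates are chr13:23763418-23763667 on the plus strand for Hist1h1a, chr13:23738557-23738806 plus for Hist1h1c, chr13:22042948-22043197 plus for Hist1h2bj, chr13:22035571-22035820 plus for Hist1h2bk, chr13:23745522-23745771 minus for Hist1h3c and chr13:23581318-23581567 plus for Hist1h4d.
Hist1h1a: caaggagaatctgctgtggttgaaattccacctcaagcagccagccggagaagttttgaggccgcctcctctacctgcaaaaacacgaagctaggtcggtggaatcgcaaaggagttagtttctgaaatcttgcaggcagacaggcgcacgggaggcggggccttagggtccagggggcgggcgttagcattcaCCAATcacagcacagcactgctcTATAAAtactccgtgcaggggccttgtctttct
Hist1h1c: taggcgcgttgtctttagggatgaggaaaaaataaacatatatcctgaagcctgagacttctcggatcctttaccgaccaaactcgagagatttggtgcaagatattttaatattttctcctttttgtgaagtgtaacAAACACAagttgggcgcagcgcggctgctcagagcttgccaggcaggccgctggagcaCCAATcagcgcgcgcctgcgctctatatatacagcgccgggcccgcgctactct
Hist1h2bj: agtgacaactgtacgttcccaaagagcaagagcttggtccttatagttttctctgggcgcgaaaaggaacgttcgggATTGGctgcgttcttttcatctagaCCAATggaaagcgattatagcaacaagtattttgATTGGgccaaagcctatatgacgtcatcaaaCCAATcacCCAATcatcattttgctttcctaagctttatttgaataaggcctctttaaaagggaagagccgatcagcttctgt
Hist1h2bk: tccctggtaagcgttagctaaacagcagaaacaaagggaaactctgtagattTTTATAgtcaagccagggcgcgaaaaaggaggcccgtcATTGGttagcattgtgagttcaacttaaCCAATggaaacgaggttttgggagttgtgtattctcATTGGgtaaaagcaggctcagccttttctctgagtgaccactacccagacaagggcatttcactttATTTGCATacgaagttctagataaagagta
Hist1h3c: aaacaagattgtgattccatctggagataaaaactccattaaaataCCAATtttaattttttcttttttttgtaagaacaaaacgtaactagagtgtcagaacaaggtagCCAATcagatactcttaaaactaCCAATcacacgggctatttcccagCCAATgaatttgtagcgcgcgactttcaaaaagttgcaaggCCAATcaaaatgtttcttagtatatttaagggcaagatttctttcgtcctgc
Hist1h4d: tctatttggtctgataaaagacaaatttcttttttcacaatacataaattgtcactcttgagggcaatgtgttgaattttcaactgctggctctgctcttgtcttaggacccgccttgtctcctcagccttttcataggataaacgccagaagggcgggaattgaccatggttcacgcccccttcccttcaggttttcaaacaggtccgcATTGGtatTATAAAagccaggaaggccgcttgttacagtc

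Of the 71 members, 70 genes were looked up and 62 had a promoter entry. CCAAT stood in 82.3% of them, against 37.5% of the 27025 genes in the table, and TATAAA in 46.8% against 14.3%. The octamer stood in 22.6% against 1.81%, in 7 of 18 H2A and 7 of 16 H2B promoters and in none of the H1, H3 or H4 promoters, and since divergent H2A and H2B neighbours share the bases between them, one match can count for both. The H1 box was in 5 of 6 H1 promoters, Hist1h1a being the exception, and in 14.5% of all members against 7.20% of all genes. Every H1, H2A and H2B promoter with an entry held CCAAT, but only 3 of 12 H4 promoters did. Set beside the RNA, CCAAT was in 79.5% of the 39 promoters of genes that were higher in both TDG KO libraries than in both WT libraries and in 87.0% of the other 23, and TATAAA in 48.7% and 43.5%. A match is a description of the letters, not a site shown to be in use.

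The libraries were alike in the features that apply to every gene. They held 20537 to 21776 genes above 0, and the steps between low values put their depth at 0.858 to 0.992 of that of WT replicate 1. Tdg RNA was 28.1 and 30.4 FPKM (fragments per kilobase of transcript, scaled to the library's mapped fragments) in WT and 5.50 and 4.74 in TDG KO, a log2 change of -2.31 (SE 0.087, limma, adjusted p = 9.21e-06), in the direction of the labels. All 8 embryonic stem cell markers listed were expressed. In TDG KO 2 were higher, among them Utf1 (log2 change 0.67), and 3 lower, among them Pou5f1 (log2 change -0.56), the pluripotency factor. Over all tested genes 24.4% were higher and 29.5% lower. Of 24 fibroblast markers, 22 were at 1 FPKM or more in every library, so RNA of these genes was present in every library. Their summed level was 970 and 714 FPKM in WT and 747 and 818 in TDG KO, none was at 0, and 20 of 24 were highest in WT replicate 1. Of the 23 tested, 2 were higher and 12 lower in TDG KO (median log2 change -0.53), and their part in the histone results was not tested.

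Clustered histone RNA that passed poly(A) selection was scarce in both genotypes and more abundant in TDG KO. The 71 genes summed to 38.7 and 38.3 FPKM in the WT libraries and to 80.0 and 86.5 FPKM in the TDG KO libraries, 2.16 times as much. One gene, Hist1h2bc, made up much of the WT sum. Without it the sums were 26.2 and 26.4 FPKM in WT and 70.7 and 76.3 FPKM in TDG KO, a ratio of 2.79. In both forms the WT libraries lay close together and well below both TDG KO libraries. A WT library listed 22 members at 0, while the TDG KO libraries listed 11 and 12. Members at 1 FPKM or more numbered 8 and 7 in WT and 23 in each TDG KO library.

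Of the 71 members, 8 were at 0 in all 4 libraries: Hist1h2aj, Hist1h2an, Hist1h2ao, Hist1h2ap, Hist2h2aa1, Hist2h2aa2, Hist1h2ba and Hist1h2br. Of the 63 others, 41 (65.1%) were higher in both TDG KO libraries than in both WT libraries, where 31.7% of all genes above 0 were, and 4 were lower throughout, where 29.6% of all genes were. Fitted with limma on log2(FPKM + 1) with no filter, 23 of the 63 rose and 2 fell (36.5% and 3.17%), beside 13.9% and 12% of all 24145 genes. The median log2 change of the 63 was 0.33, and that of all genes 0.0029. Among the 63, 8 members were at 0 in both WT libraries and above 0 in TDG KO, and 3 of the 23 calls are of that kind. Hist1h2af was at 0 in both TDG KO libraries and in 1 WT library.

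Most members lie close to the lower end of what these libraries resolve. Among the 16 members whose deposited locus spans at most 400 bp, the lowest value above 0 was between 0.0706 and 0.0757 FPKM in each library, so the values of most members stand for few fragments. The deposited files hold no counts, and no counting interval can be given. For 26 members the deposited locus is shared with another listed gene, among them all 20 H2A members. Histone gene copies are also nearly identical in sequence. How the authors' counting shared out fragments that match several copies or overlapping genes is not given in any source used here. The values of single copies are uncertain for that reason.

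With the filter on low values used for the main comparison (a mean of at least 1 FPKM over the 4 libraries), 16 members were tested: 12 rose in TDG KO, Hist1h2bc fell, and Hist1h1c, Hist3h2ba and the Hist2h2bb entry ENSMUSG00000105827 were not called. Over all 12035 genes tested 24.4% rose and 29.5% fell. A gene low in WT passes this filter only through its TDG KO libraries and then had to differ, so the 12 of 16 is a description and carries less than the counts with no filter. The same holds for the adjusted p-values of such members, which are therefore given below with no filter. For Hist1h1d and Hist1h4f both are given. Asking for a mean of at least 1 FPKM in each genotype, a setting chosen after seeing the data, left 7 members, of which Hist1h1a, Hist1h2bj, Hist3h2ba, Hist1h4d and Hist1h4i rose, Hist1h2bc fell and Hist1h1c was not called, beside 23.4% higher and 30.8% lower of all 11370 genes. The authors' deposited table marked 16 members as significantly higher in TDG KO and 2 as lower (Hist3h2a and Hist2h2be) of 48 that it tested, where it marked 15.3% and 12.1% of all genes. The 13 members called here and the 18 significant ones of the authors' deposited table have 10 in common.

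**Figure D1:**
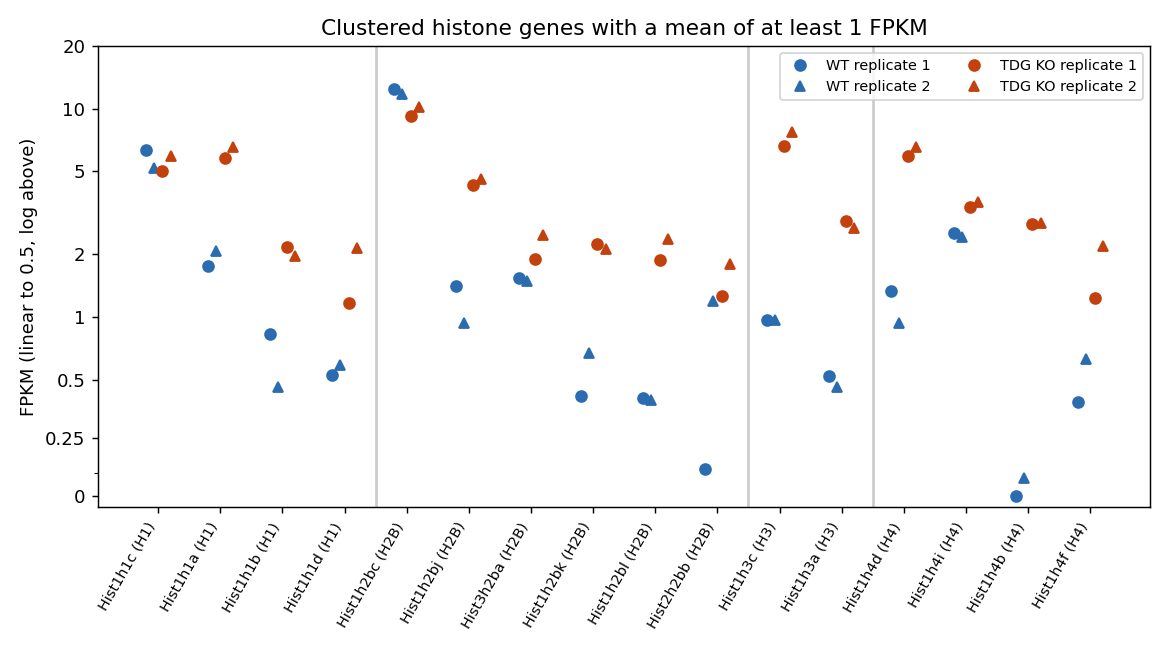
FPKM of the 16 members with a mean of at least 1 FPKM, each point 1 library (blue WT, orange TDG KO, circles replicate 1, triangles replicate 2), with an axis that is linear to 0.5 and logarithmic above. Hist1h2bc and Hist1h1c, the genes most abundant in WT, are not higher in TDG KO, while Hist1h1a, Hist1h3c, Hist1h4d and Hist1h2bj stand clear of WT.

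The linker histone genes encode H1, which binds the DNA between nucleosomes. Their sum was 10.1 and 9.06 FPKM in WT and 15.0 and 17.7 FPKM in TDG KO. With no filter Hist1h1a and Hist1h1b were the 2 of the 6 that rose, where 13.9% of all genes did. Hist1h1c, the most abundant in WT, held 6.32 and 5.22 FPKM in WT and 5.02 and 5.94 FPKM in TDG KO. Its groups overlapped and it did not pass the test (log2 change -0.06, SE 0.113, limma, adjusted p = 0.675). Hist1h1a held 1.75 and 2.08 FPKM in WT and 5.80 and 6.57 FPKM in TDG KO, both TDG KO libraries being above both WT libraries (log2 change 1.30, SE 0.103, limma, adjusted p = 0.000155). It lay above Hist1h1c in both TDG KO libraries and below it in both WT libraries. Hist1h1b held 0.832 and 0.471 FPKM in WT and 2.17 and 1.96 FPKM in TDG KO (log2 change 0.90, limma with no filter, adjusted p = 0.0192). Hist1h1d held 0.529 and 0.587 FPKM in WT and 1.17 and 2.15 FPKM in TDG KO (log2 change 0.75, limma, adjusted p = 0.0123), with its TDG KO libraries well apart from each other, and with no filter on FPKM its adjusted p was 0.0654. Hist1h1e, at 0.150 and 0.467 FPKM in WT and 0.557 and 0.647 FPKM in TDG KO, did not overlap either but was not called with no filter. Hist1h1t, the testis-specific H1, held 0.491 and 0.241 FPKM in WT and 0.314 and 0.419 FPKM in TDG KO, with overlapping groups.

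The H2A genes were the least represented type. Their 20 members summed to 1.93 and 1.92 FPKM in WT and to 5.88 and 4.36 FPKM in TDG KO, and none reached a mean of 1 FPKM. Hist3h2a, the most abundant in WT, held 1.08 and 1.21 FPKM in WT and 0.663 and 0.614 FPKM in TDG KO, both TDG KO libraries being below both WT libraries. With no filter it fell by 0.39 on the log2 scale (limma, adjusted p = 0.031). It shares its deposited locus with 4 other genes, among them Trim17. The other H2A genes that changed with no filter all rose, and all are in the Hist1 cluster. Hist1h2ag held 0.0466 and 0.163 FPKM in WT and 1.52 and 1.11 FPKM in TDG KO (limma with no filter, adjusted p = 0.00955). Hist1h2ae held 0.406 and 0.118 FPKM in WT and 1.29 and 0.933 FPKM in TDG KO (limma with no filter, adjusted p = 0.0351). Hist1h2ak held 0 and 0.0778 FPKM in WT and 0.952 and 0.794 FPKM in TDG KO (limma with no filter, adjusted p = 0.00614). In TDG KO all 3 of these genes lay above Hist3h2a. Hist1h2ad, Hist1h2ah and Hist1h2ai were at 0 in WT replicates 1 and 2 and at 0.0721 to 0.193 FPKM in TDG KO, so their calls rest on very low values. Another gene shares the locus of each H2A member in the deposited table, and its part in these low levels was not tested.

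The H2B genes held the largest sum, 18.7 and 18.6 FPKM in WT and 27.3 and 29.8 FPKM in TDG KO. Most of the WT value was Hist1h2bc, at 12.5 and 11.8 FPKM in WT and 9.26 and 10.2 FPKM in TDG KO. It was lower in both TDG KO libraries than in both WT libraries (log2 change -0.29, SE 0.0774, limma, adjusted p = 0.0177), but it did not pass with no filter (adjusted p = 0.0518). It was also not called with WT replicate 1 left out (limma, adjusted p = 0.109), nor with WT replicate 2 (0.0552) or the first TDG KO library (0.0879) left out. The remaining 19 H2B genes summed to 6.21 and 6.79 FPKM in WT and 18.0 and 19.6 FPKM in TDG KO, 2.89 times as much. Hist1h2bj held 1.41 and 0.938 FPKM in WT and 4.29 and 4.61 FPKM in TDG KO (log2 change 1.34, SE 0.125, limma, adjusted p = 0.000293). Hist1h2bl held 0.424 and 0.412 FPKM in WT and 1.87 and 2.37 FPKM in TDG KO (log2 change 1.13, limma with no filter, adjusted p = 0.00777). Hist1h2bk held 0.432 and 0.672 FPKM in WT and 2.25 and 2.13 FPKM in TDG KO (log2 change 1.04, limma with no filter, adjusted p = 0.00937). In all 3 genes the groups did not overlap. Hist3h2ba, at 1.54 and 1.49 FPKM in WT and 1.89 and 2.47 FPKM in TDG KO, narrowly missed the threshold (log2 change 0.33, limma, adjusted p = 0.0503). The Hist2h2bb entry ENSMUSG00000105827 held 0.117 and 1.20 FPKM in WT and 1.26 and 1.81 FPKM in TDG KO. Its WT libraries differed from each other by more than its TDG KO libraries (limma with no filter, adjusted p = 0.260). Hist2h2be held 0.401 and 0.420 FPKM in WT and 0.194 and 0.163 FPKM in TDG KO and fell with no filter (limma, adjusted p = 0.0149).

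The H3 genes showed the largest ratio of sums, 4.28, from 3.14 and 3.64 FPKM in WT to 13.6 and 15.4 FPKM in TDG KO. Hist1h3c made up the largest part in TDG KO. It held 0.965 and 0.966 FPKM in WT and 6.64 and 7.70 FPKM in TDG KO (log2 change 2.05, SE 0.107, limma with no filter, adjusted p = 0.00348), the largest change of the members tested on the log2(FPKM + 1) scale. That order depends on the scale: the authors' deposited table gave a log2 fold of 2.89 for Hist1h3c and 6.21 for Hist1h4b, a gene near 0 in WT that it did not mark as significant. Hist1h3a held 0.522 and 0.468 FPKM in WT and 2.89 and 2.69 FPKM in TDG KO (log2 change 1.34, SE 0.0896, limma with no filter, adjusted p = 0.00471). With no filter Hist1h3e, Hist1h3g and Hist1h3f rose as well. Hist1h3e held 0.238 and 0.101 FPKM in WT and 1.03 and 1.33 FPKM in TDG KO, and Hist1h3g 0.230 and 0.201 FPKM in WT and 0.996 and 1.18 FPKM in TDG KO. The Hist1h3b, Hist1h3d and Hist1h3i groups overlapped. Of the 3 Hist2 copies none was called with no filter. Hist2h3b held 0.0461 and 0.0538 FPKM in WT and 0.0938 and 0.199 FPKM in TDG KO, higher without overlap at very low levels. Hist2h3c1 held 0.264 and 0.464 FPKM in WT and 0.146 and 0.0778 FPKM in TDG KO, and the Hist2h3c2 groups overlapped.

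The H4 genes, whose copies encode the same protein, summed to 4.86 and 5.03 FPKM in WT and 18.2 and 19.2 FPKM in TDG KO, a ratio of 3.78. All 13 members were above 0 somewhere. Of these, 11 were higher in both TDG KO libraries than in both WT libraries, where 31.7% of all genes above 0 were. Hist1h4d, the most abundant in TDG KO, held 1.33 and 0.934 FPKM in WT and 5.92 and 6.57 FPKM in TDG KO (log2 change 1.77, SE 0.119, limma, adjusted p = 8.39e-05). Hist1h4b stood at 0 and 0.0764 FPKM in the WT libraries and at 2.80 and 2.83 FPKM in TDG KO (log2 change 1.88, SE 0.0812, limma with no filter, adjusted p = 0.00275). It went from the edge of detection to the level of Hist1h4i, which held 2.54 and 2.42 FPKM in WT and 3.36 and 3.56 FPKM in TDG KO. Hist1h4i changed least of the 4 tested (log2 change 0.36, SE 0.0885, limma, adjusted p = 0.0139) and did not pass with no filter (0.0569), without WT replicate 2 (0.0619) or without TDG KO replicate 2 (0.0654). Hist1h4f held 0.404 and 0.628 FPKM in WT and 1.24 and 2.18 FPKM in TDG KO (log2 change 0.82, limma, adjusted p = 0.00924), and with no filter its adjusted p was 0.0561. Among the low genes, Hist1h4h held 0.291 and 0 FPKM in WT and 1.18 and 1.36 FPKM in TDG KO, and Hist1h4a 0.0791 and 0.323 FPKM in WT and 0.844 and 1.15 FPKM in TDG KO, and both rose with no filter.

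**Figure D2:**
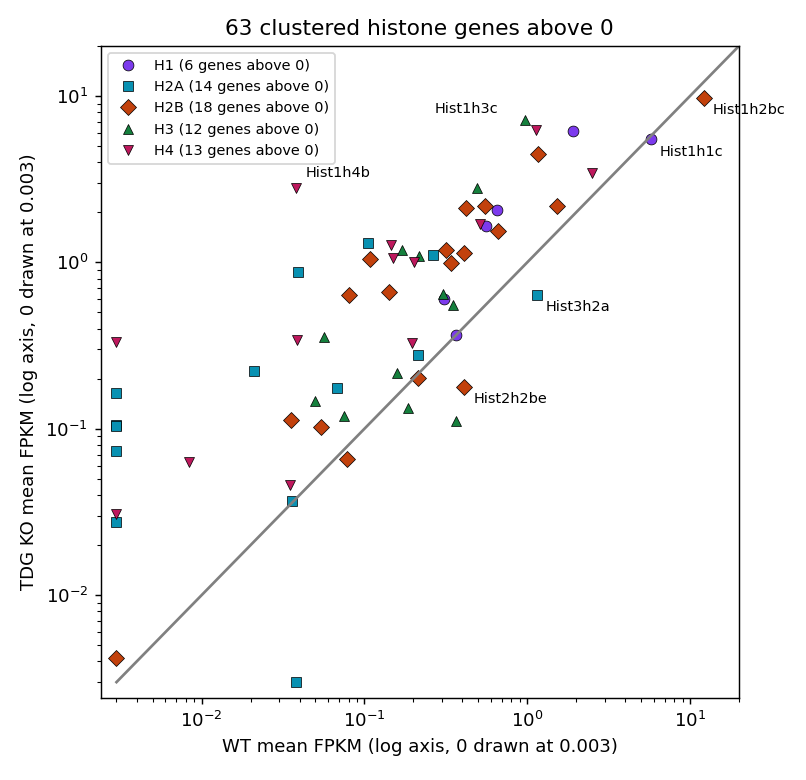
Mean FPKM of the 63 members above 0, WT on the horizontal and TDG KO on the vertical axis (both logarithmic, 0 drawn at 0.003), with the diagonal marking equal levels and 1 symbol per histone type. Of the 63, 54 lie above the diagonal, among them most genes above 0 of every histone type. Hist1h2bc, Hist3h2a and Hist2h2be are among the 9 under it.

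The calls were also counted by cluster. They can be read beside the shares over all genes above 0, of which 31.7% were higher and 29.6% lower without overlap, and 13.9% rose and 12% fell with no filter. Of the 50 Hist1 members above 0, 36 were higher without overlap and 1 was lower. With no filter 22 of them rose and 0 fell (limma, 30 and 1 at an unadjusted p under 0.05, and 16 and 0 in the authors' deposited table). Of the 9 Hist2 members above 0, 3 were higher without overlap and 2 lower, and 0 rose and 1 fell with no filter (limma, 0 and 2 at an unadjusted p under 0.05, and 0 and 1 in the authors' deposited table). The Hist2 sum was 1.27 and 2.33 FPKM in WT and 2.03 and 2.90 FPKM in TDG KO, and its groups overlapped. The 3 Hist3 genes summed to 2.67 and 2.75 FPKM in WT and 2.71 and 3.14 FPKM in TDG KO. Hist4h4 was at 0.0106 and 0.00617 FPKM in WT and 0.0640 and 0.0627 FPKM in TDG KO and rose with no filter (limma, adjusted p = 0.0409), all at very low levels. Whether the clusters differ from each other in their response was not tested.

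A split by length of the RefSeq gene was looked at after the values were seen. Of the 7 members that span more than 1 kb, Hist1h2bc and Hist2h2be were lower without overlap, Hist1h2bp was higher, and Hist1h2al, Hist1h2be and Hist1h2bq overlapped, while Hist1h2br was at 0. Of these 7, 6 were above 0, and with no filter 0 rose and 1 fell, beside 13.9% and 12% of all genes. The counts were 1 and 2 at an unadjusted p under 0.05 (limma) and 1 and 1 in the authors' deposited table. The 64 shorter members, 57 of them above 0, held all 23 genes that rose with no filter. Whether longer and shorter members differ was not tested. As sums, the longer genes held 13.5 and 12.8 FPKM in WT and 11.3 and 11.4 FPKM in TDG KO, and the shorter ones 25.2 and 25.5 FPKM in WT and 68.7 and 75.1 FPKM in TDG KO.

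H2A and H2B genes often stand head to head and share the bases between them as a promoter. By distance alone there were 14 pairs of an H2A and an H2B member, pseudogenes included, 163 to 280 bp apart. Their orientation was not checked. In 6 pairs both genes were higher in both TDG KO libraries than in both WT libraries. Taken singly, the H2B gene was so in 8 pairs and the H2A gene in 7, where 31.7% of all genes above 0 were. Whether the 2 genes of a pair move together was not tested. H2B was above its H2A partner in all 4 libraries in 6 pairs, and H2A above H2B in both TDG KO libraries in 3. The pair Hist1h2ag and Hist1h2bj, with the bases between them printed for Hist1h2bj, rose on both sides, H2A to 1.52 and 1.11 FPKM and H2B to 4.29 and 4.61 FPKM. The pair Hist1h2ak and Hist1h2bn was the reverse in level, with 0.952 and 0.794 FPKM for H2A and 0.0721 and 0.153 FPKM for H2B in TDG KO. In the pair Hist1h2ac and Hist1h2bc the H2B gene was at 9.26 FPKM or more in every library, while its partner was at 0 in 3 libraries and at 0.146 FPKM in TDG KO replicate 1. In Hist2h2ac and Hist2h2be the H2A gene was higher without overlap and the H2B gene lower. The other gene listed at each H2A locus limits a comparison of H2A with H2B levels, and no source used here gives the strand used in counting.

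**Figure D3:**
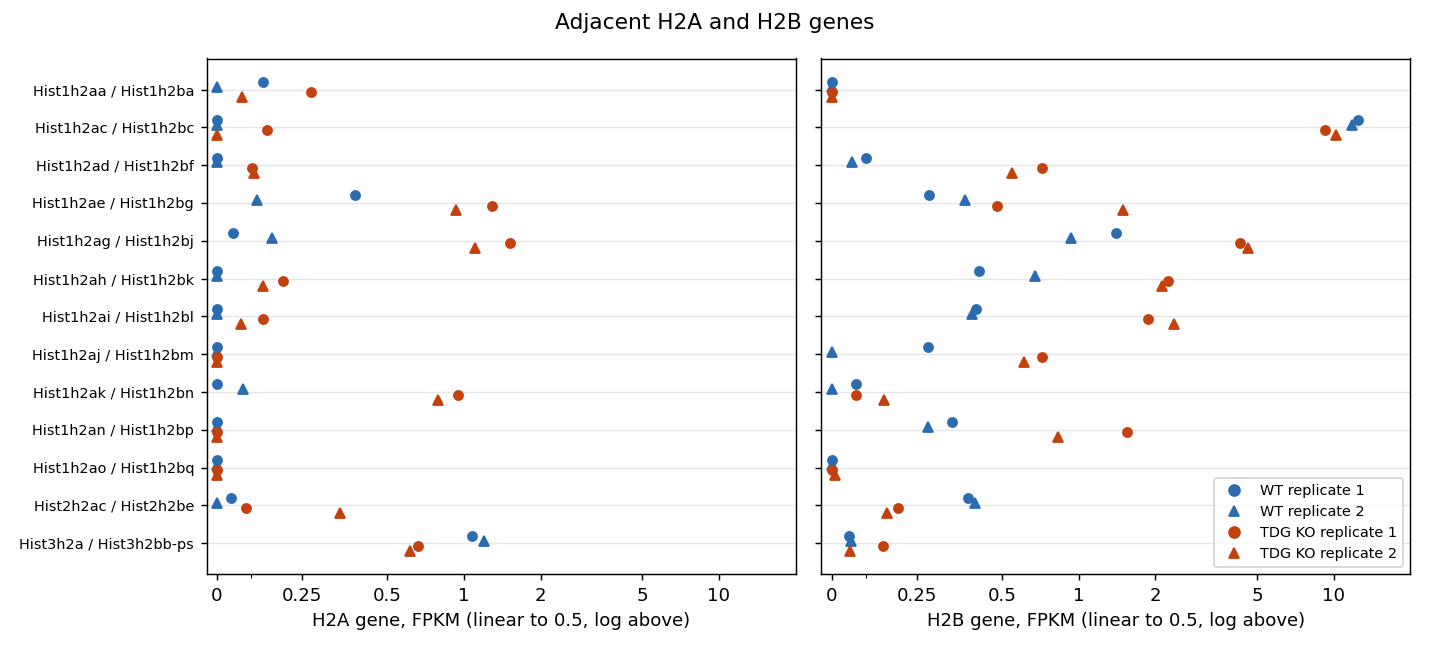
FPKM of the 13 adjacent H2A and H2B pairs with a value above 0, H2A genes at the left and H2B genes at the right, each point 1 library (blue WT, orange TDG KO, circles replicate 1, triangles replicate 2), with axes that are linear to 0.5 and logarithmic above. The H2A genes lie at or under 1.52 FPKM, while Hist1h2bc, Hist1h2bj, Hist1h2bk and Hist1h2bl reach higher values on the H2B side.

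The genes beside the histone clusters were compared in the same fit, to see whether whole stretches of chromosome moved. Within 500 kb of the histone stretches 67 other genes were tested, of which 18 rose (26.9%) and 28 fell (41.8%), beside 24.4% and 29.5% of all genes tested. Of the 67, 2 lie between histone genes. Around the proximal and distal Hist1 stretches there were 12 such genes: 2 rose (Gpx6 and Abt1), 8 fell and 2 were not called, with a median log2 change of -0.38. Prss16, a serine protease gene inside the proximal stretch, held 2.52 and 3.84 FPKM in WT and 1.64 and 1.73 FPKM in TDG KO (log2 change -0.62, limma, adjusted p = 0.0139). Zfp184, a zinc finger gene in the same stretch, was at 7.23 and 7.46 FPKM in WT and 7.45 and 6.92 FPKM in TDG KO and was not called. Both were named after their values were seen, as the genes inside the stretches. Around the Hist3 genes on chromosome 11, 10 of 14 neighbours rose and 0 fell (limma, 11 and 0 at an unadjusted p under 0.05), the largest change being that of Fam183b (0.991 and 1.48 FPKM in WT, 6.44 and 8.04 FPKM in TDG KO, log2 change 1.88). Around Hist2 on chromosome 3, 3 of 27 rose and 14 fell. Polr3gl, a subunit of RNA polymerase III, fell there from 22.0 and 21.8 FPKM to 5.02 and 5.13 FPKM (log2 change -1.91), and Bola1 rose from 10.3 and 9.75 FPKM to 27.7 and 31.1 FPKM (log2 change 1.46). Whether the histone genes of a stretch differ from their neighbours was not tested.

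**Figure D4:**
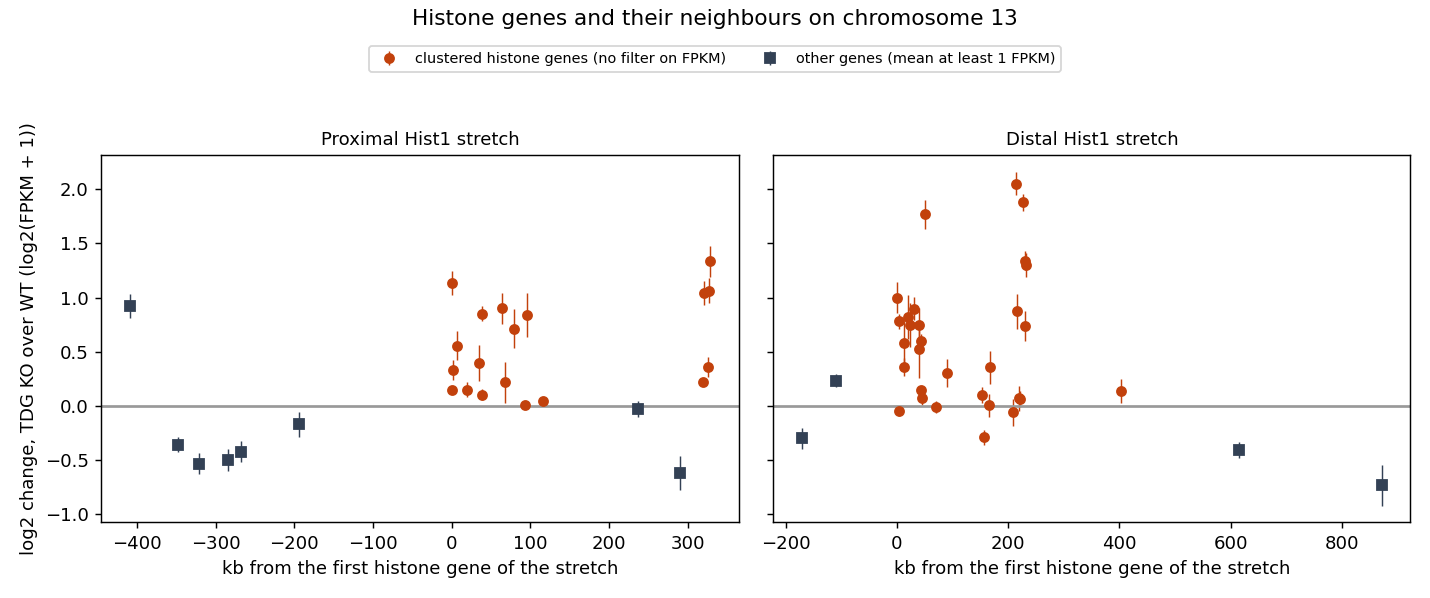
Log2 change from WT to TDG KO on the log2(FPKM + 1) scale along the 2 Hist1 stretches of chromosome 13, by distance from the first histone gene. Orange points are clustered histone genes with no filter, dark squares are other genes with a mean of at least 1 FPKM, and bars are standard errors from limma. Of the histone genes 45 of 49 lie above 0, while 10 of the 12 other genes lie below 0. The median log2 change of all genes was 0.0029 with no filter and -0.04 with a mean of at least 1 FPKM. Many of the histone points rest on very low values.

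CTCF, the zinc finger protein at loop anchors and boundaries, was compared in the same stretches with 10 kb on either side. The lists held 30 and 25 peaks there in WT and 33 and 37 in TDG KO, where the whole lists held 38303 and 37099 peaks in WT and 48514 and 48833 in TDG KO. Merged, they gave 43 regions: 23 with a peak in all 4 lists (53.5%, against 59.8% of regions genome-wide), 5 seen in both TDG KO lists but in no WT list (11.6% against 10.8%), 1 with the reverse pattern (2.33% against 0.17%, a single region inside the stretches), and 14 of mixed kind. With 1 list left out, the regions in TDG KO lists only became 11 without TDG KO replicate 1, and those in WT lists only became 3 without WT replicate 2. With 2 lists per genotype the smallest p that an exact permutation could give is 0.33, and none was computed. Of the shared regions, 10 lie in the proximal and 10 in the distal Hist1 stretch. Only 2 members overlap a shared region, Hist3h2a and Hist1h2be. For 16 members the nearest region, those of mixed kind left out, is a shared one within 5 kb. The region at Hist3h2a, chr11:58954808-58955232, ranked at the 2.61 and 6.05 percentiles of the WT lists by the authors' score and at the 49.1 and 31.2 percentiles of the TDG KO lists. Ranks from lists of different length cannot show whether binding changed. A region in both TDG KO lists only, chr13:21786818-21787101, overlaps Hist1h2an, which was at 0 in all 4 RNA libraries.

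The genes that make, trim, remove and deposit histone mRNA or protein had more lower than higher calls, as did all tested genes. Over the 5 lists of such genes, 92 were tested, 12 rose (13%) and 42 fell (45.7%), beside 24.4% and 29.5% of all genes. Without WT replicate 2 the 42 became 20. In the list of 3′ end processing genes 4 of 18 rose and 7 fell (median log2 change -0.19, where all tested genes had -0.04). Lsm11, a subunit of the U7 snRNP that guides the histone-specific cut, went from 3.04 and 2.95 FPKM in WT to 6.30 and 6.64 FPKM in TDG KO (log2 change 0.90, limma, adjusted p = 0.000249). Its partner Lsm10 went from 16.0 and 14.7 FPKM to 18.4 and 20.8 FPKM (log2 change 0.33), and Sympk, the scaffold of the cleavage complex, from 39.0 and 38.4 FPKM to 50.3 and 51.4 FPKM (log2 change 0.39). Casp8ap2, also called FLASH, which joins the U7 snRNP to the cleavage complex, fell from 18.3 and 18.2 FPKM to 15.0 and 12.0 FPKM (log2 change -0.42). Slbp, whose protein binds the stem-loop, held 96.4 and 107 FPKM in WT and 87.4 and 89.9 FPKM in TDG KO and narrowly missed the threshold (log2 change -0.20, limma, adjusted p = 0.0528). In the RNA that passed poly(A) selection, Slbp was above every clustered histone gene in all 4 libraries. Most histone mRNAs normally carry no tail, so these levels do not compare Slbp with histone RNA as a whole.

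Of 9 genes of histone mRNA decay, 0 rose and 2 fell (limma, 0 and 3 at an unadjusted p under 0.05). They were Xrn1, a 5′ to 3′ exonuclease (log2 change -0.51), and Dis3l2, a 3′ to 5′ exonuclease (log2 change -0.40). Of 35 genes of S phase entry, replication and histone transcription, 3 rose and 17 fell (median log2 change -0.25). Mcm4, a subunit of the replicative helicase, rose from 74.5 and 79.8 FPKM to 130 and 130 FPKM (log2 change 0.75), and Cdc6, which loads that helicase, from 29.1 and 30.8 FPKM to 48.1 and 48.3 FPKM (log2 change 0.67). Cdkn1b, the cell cycle inhibitor p27, fell from 16.0 and 19.3 FPKM to 6.45 and 6.06 FPKM (log2 change -1.36), and E2f2, an S phase transcription factor, fell by 0.65 on the log2 scale. The other 15 genes of the list were not called.

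Most of the genes listed as replication-independent histone variants are single genes with ordinary polyadenylated mRNAs. Of the 16 listed, 11 were tested, and of these 3 rose and 4 fell. H3f3a and H3f3b encode the same protein, H3.3, and moved in opposite directions: H3f3a fell from 883 and 938 FPKM to 545 and 610 FPKM (log2 change -0.66, limma, adjusted p = 0.000993), and H3f3b rose from 558 and 603 FPKM to 762 and 840 FPKM (log2 change 0.46, limma, adjusted p = 0.00385). H2afj, an H2A variant gene next to Hist4h4 on chromosome 6, rose from 5.91 and 7.10 FPKM to 15.5 and 15.2 FPKM (log2 change 1.13), and H1fx, a linker histone variant, from 9.46 and 9.53 FPKM to 16.2 and 18.3 FPKM (log2 change 0.80). H2afz, the H2A.Z gene, was the most abundant histone gene of the list at 1185 and 1368 FPKM in WT and 1113 and 1198 FPKM in TDG KO, and did not pass the test. Of 22 histone chaperone genes, which carry histones to DNA, 2 rose and 13 fell (median log2 change -0.24). Rbbp7 fell from 643 and 686 FPKM to 233 and 237 FPKM (log2 change -1.49), Rbbp4 by 0.54, Asf1a by 0.53 and Hjurp by 0.50 on the log2 scale.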

How the data were processed

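Each genotype had 2 RNA libraries and 2 CTCF peak lists. The RNA polymerase II, IgG and input samples were not analysed here. The authors deposited FPKM values for each library, per the file headers, and a table of their comparison that gives q-values and p-values, a score for the test and log2 folds. Cuffdiff, Cufflinks 2.2.1, TopHat2 2.1.1, MACS2 2.2.1, Bowtie2 2.2.9, deepTools and the mm10 build are named in the submitters' processing notes, without their roles. The deposited CTCF lists give a score per peak, used only for ranks within a list. The absolute depth is unknown.

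The members and gene lists were chosen with earlier results of these data known. The test was limma 3.58.1 (R 4.3.3, trend option, 2-sided) applied to log2(FPKM + 1). It covered the 12035 genes whose mean was 1 FPKM or more, and p-values were adjusted over these by the Benjamini-Hochberg method with a threshold of 0.05. This scale understates the change of low genes. On simulated data of the same comparison and 12035 genes, 28 of 100 genes changed by 0.5 log2 and 82 of 100 changed by 1 log2 were called, with 4 of 11835 unchanged genes. Far fewer genes changed in the simulation than were called in the data, so these rates need not carry over. Named genes were Tdg, the most abundant member of each histone type, up to 4 called members in each direction per type, up to 4 called genes of each of the 7 lists (or the 2 most abundant where none was called) and up to 4 called neighbours. Members with low values, Slbp, H2afz and the neighbours Prss16, Zfp184, Gpx6 and Abt1 are outside this rule and were named after their values were seen. Genes were placed by RefSeq positions, which found all 71 members and 34405 of 46939 genes. An overlap of 1 bp or more merged CTCF peaks into a region. The alternatives were another pseudocount, other filters and scalings, a replicate block, leaving out each library, the authors' calls, and other settings for peaks and neighbours.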

Additional observations from a re-analysis of the deposited data

How the results depend on the processing

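The 12 members that rose became 23 with no filter, 0 with a mean of at least 5 FPKM (which leaves few members to test) and 5 with at least 1 FPKM in each genotype. The 1 that fell, Hist1h2bc, was not called with no filter or by the authors. In both of these settings 2 other members fell, Hist3h2a and Hist2h2be, which the main filter left untested. Leaving out each library in turn gave 11 to 13 higher and 0 to 1 lower members, the 0 arising when either WT library or TDG KO replicate 1 was left out. Each such fit has 1 group with a lone library, assumed to vary like the other group. The filter was still set on all 4 libraries, so members that passed it only through TDG KO had to differ here too. These counts are therefore a description. The same limit holds for those checks of single members that kept this filter. Of 148 checks of single members under the alternatives, 137 kept direction and side of the threshold and 9 lost the call, those of Hist1h1d, Hist1h2bc, Hist1h4f and Hist1h4i. The other 2 changed sign: Hist1h1c, not called in any of its fits, had a log2 change of -0.061, of 0.057 without WT replicate 1 and 0.041 without TDG KO replicate 1, and of -0.178 to 0.057 over all fits that left out 1 library.

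The other lists went from 12 higher and 42 lower to 7 and 12 by the authors' calls, and to between 20 and 39 lower with 1 library left out (20 without WT replicate 2). Neighbours went from 18 higher to 11 at a mean of 5 FPKM, and to 0 higher and 1 lower of 2 inside the clusters, from 28 lower around them. All genes lower went from 3554 to 1961 by the authors' calls. The median change of all genes was -0.04, -0.01 with upper-quartile and -0.0026 with median-ratio scaling, each of which gave 13 higher members. CTCF regions shared by all lists went from 23 to 15 with no flank. Those in TDG KO lists only went from 5 to 0 with the strongest peaks of each list, and to 5 to 11 without 1 list (11 without TDG KO replicate 1). Those in WT lists only ranged from 1 to 3 (3 without WT replicate 2). The choice of at least 1 FPKM in each genotype was made after seeing the data.

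The replicate numbers are shared between genotypes but did not pair the libraries (r = -0.016 between the deviations of same-numbered libraries over 12035 genes, across genes that are not independent). A fit with replicate number as a block gave 14 higher and 1 lower member, and 3030 higher and 3666 lower genes in all.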
